A study of Caenorhabditis elegans with 2 samples.

Results

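Binding of EGL-43::GFP was examined at 9 genes that act in the development of the hermaphrodite specific neurons (HSNs) of *C. elegans*, out of 19985 protein-coding genes in the annotation. The 9 genes are *unc-86*, *sem-4*, *hlh-3*, *egl-44*, *egl-46*, *ast-1*, *ham-1*, *ham-2* and *tph-1*. They were listed for their known role, with earlier results of these data in view, and every peak in the gene body or in the 5000 bp upstream of the gene start was taken. A peak is a stretch of DNA where immunoprecipitated reads pile up above the background that the peak caller estimates, and its summit is the position with the most reads. Of the 9 genes, 6 had a region that was called in both replicates, 1 (*ham-2*) had a peak in replicate 2 alone, and 2 (*hlh-3* and *tph-1*) had no peak in either list.

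The HSNs are a pair of serotonergic motor neurons that drive egg laying by exciting the vulval muscles. They are born in the tail of the embryo, migrate to the middle of the body, and acquire their axon, serotonin and synapses during larval development. *egl-43*, the homolog of the *Evi1* proto-oncogene, encodes a zinc finger protein that the HSNs need in order to migrate. UNC-86 (a POU homeodomain protein), SEM-4 (a Spalt-type zinc finger protein), HLH-3 (an Achaete-Scute-type bHLH protein), EGL-46 (an INSM-type zinc finger protein) and AST-1 (an ETS domain protein) are transcription factors that drive HSN differentiation, EGL-44 is the TEAD-type partner of EGL-46, HAM-1 is a winged-helix protein of asymmetric neuroblast divisions, HAM-2 is a zinc finger protein of HSN migration, and TPH-1 is the tryptophan hydroxylase that makes serotonin.

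The ChIP-seq libraries came from whole L3 larvae of genotype zh136[egl-43::gfp], strain egl43-gfp, in which the endogenous gene carries *gfp*, so that both replicates hold the tag and no untagged or input library was analysed here. Larvae were synchronized by hatching overnight in buffer, and were then plated and grown for 27 h at 25°C. They were fixed with formaldehyde and EGS, and precipitated with the anti-GFP antibody ab290. There were 2 biological replicates of 1 condition, so no groups could be compared, and differences between regions are set against the spread between the replicates. The study describes the tagged protein at this stage mainly in the somatic gonad and in neurons of the head and tail. The HSN cell bodies, in contrast, already lie in the midbody, so binding during their migration was not measured. In a whole larva, a peak from a few cells with strong binding and one from many cells with weak binding cannot be told apart.

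The DNA under the summits is shown here for 8 of the regions, a choice of upstream and intronic regions of the bound genes, and the peak of *ham-2*. Others, such as the window of *sem-4* and the upstream window of *ast-1*, are not printed here. Each window spans 101 bp centred on the summit of the replicate with the higher value, read 5′ to 3′ on the strand of the gene in WBcel235. Capitals mark a match to one of the searched words, which were AGATGAG and ACAAGATA (the sites of the zinc finger domains of mammalian EVI1), TGACTCA or TGAGTCA (AP-1), CANNTG (the E-box that bHLH proteins bind) and GATAA (GATA factors), all on both strands.
ham-1 intron 2 (the first 18 bases are the end of exon 2), chrIV:12542534-12542634, plus strand: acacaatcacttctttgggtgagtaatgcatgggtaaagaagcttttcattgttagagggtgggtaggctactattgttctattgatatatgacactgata
ast-1 intron 5, farthest from the start, chrII:4130171-4130271, minus strand: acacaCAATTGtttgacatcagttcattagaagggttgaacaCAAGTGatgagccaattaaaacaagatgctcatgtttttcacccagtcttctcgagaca
ast-1 intron 5, middle, chrII:4131397-4131497, minus strand: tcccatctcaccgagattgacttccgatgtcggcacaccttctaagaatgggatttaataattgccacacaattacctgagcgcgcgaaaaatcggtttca
ast-1 intron 5, nearest to the start, chrII:4132430-4132530, minus strand: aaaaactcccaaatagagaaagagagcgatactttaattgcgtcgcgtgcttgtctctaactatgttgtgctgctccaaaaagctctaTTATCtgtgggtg
egl-44 intron 1, chrII:5931269-5931369, plus strand: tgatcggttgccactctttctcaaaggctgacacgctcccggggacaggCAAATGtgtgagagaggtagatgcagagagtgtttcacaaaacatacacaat
egl-46 upstream, chrV:6683806-6683906, minus strand: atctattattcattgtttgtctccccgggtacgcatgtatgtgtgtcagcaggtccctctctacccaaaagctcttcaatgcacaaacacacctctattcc
unc-86 upstream, chrIII:8217396-8217496, minus strand: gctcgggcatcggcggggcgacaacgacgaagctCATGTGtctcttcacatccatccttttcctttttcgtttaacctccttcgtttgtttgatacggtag
ham-2 intron 1, replicate 2 alone, chrX:4556079-4556179, plus strand: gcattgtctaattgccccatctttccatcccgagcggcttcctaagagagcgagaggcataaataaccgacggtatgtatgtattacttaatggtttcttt
An E-box stood in the printed windows of *unc-86* (CATGTG), *egl-44* (CAAATG) and the farthest intron 5 region of *ast-1* (CAATTG and CAAGTG), and a GATAA word stood, as its reverse complement TTATC, in the *ast-1* region nearest to the start. Neither EVI1 word nor the AP-1 word occurred in these 8 windows.

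Binding at *ast-1* and *ham-1* was the strongest of the list, in number of regions and in height. The fold enrichment of a peak, as deposited, compares the reads at the summit with the local background after adding 1 to each, so that a value of 1 stands for no enrichment. The numbers of reads behind it were recovered for all 30 peaks of these genes, and the 95% Poisson intervals given with them cover counting error only. Regions called in both replicates (overlap of at least 1 bp) are called shared, and over all 7259 shared regions the lower of the 2 values had a median of 3.69 (quartiles 3.02 and 5.14). The log2 ratio of replicate 2 to replicate 1 had its median at 0.13 over these regions (SD 0.31), with 95% of them between -0.49 and 0.75. This range was taken as the spread between replicates. Regions of replicate 1 alone (877) or of replicate 2 alone (3514) have no ratio, so the spread leaves them out and may be too narrow. It also pools regions of all heights and was not computed for weak regions by themselves, where counting error is larger.

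*ast-1* (WBGene00020368, chrII:4127837-4135359, minus strand, 8 exons) had 5 shared regions. Within intron 5, which runs from 2565 to 6070 bp past the gene start, 3 of them followed each other. The middle one (chrII:4131345-4131603) had a fold enrichment of 4.70 in replicate 1 (53 reads, 39.7–69.3) and 4.64 in replicate 2 (54 reads, 40.6–70.5), with summits 29 bp apart, 3912 bp past the start. The farthest one (chrII:4130105-4130690, 5138 bp past the start) had 4.62 (52 reads) and 4.98 (58 reads), and the nearest (chrII:4132124-4132907, 2879 bp past the start) had 3.66 (41 reads) and 4.81 (56 reads). The values of the replicates lay within the spread in all 3 intronic regions, and the intervals of their reads overlapped.

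A further region of *ast-1* lay in exon 1 (chrII:4134730-4134986), 494 bp past the start, with 4.53 (51 reads) and 4.73 (55 reads). Its window is mostly untranslated exon, with 76 of 101 bases, and is not printed. The only upstream region of *ast-1* (chrII:4138203-4138590, 2969 bp before the start) differed most between the replicates within the gene, at 2.79 (31 reads) in replicate 1 and 4.56 (53 reads) in replicate 2, a log2 ratio of 0.71 that was still inside the range of 95% of the shared regions. All 5 regions had the start of *ast-1* as the nearest start of a protein-coding gene. Across the genome, 1.24% of protein-coding genes (247 of 19985) had at least 5 shared regions by the same rule, and *ast-1* was the only one of the 9 among them. That limit is the count of *ast-1* itself, and the share was not split by window length. The count of *ast-1* was 4 with the gene body alone, with 500 or 2000 bp upstream, and with a reciprocal overlap of 50%.

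**Figure D1:**
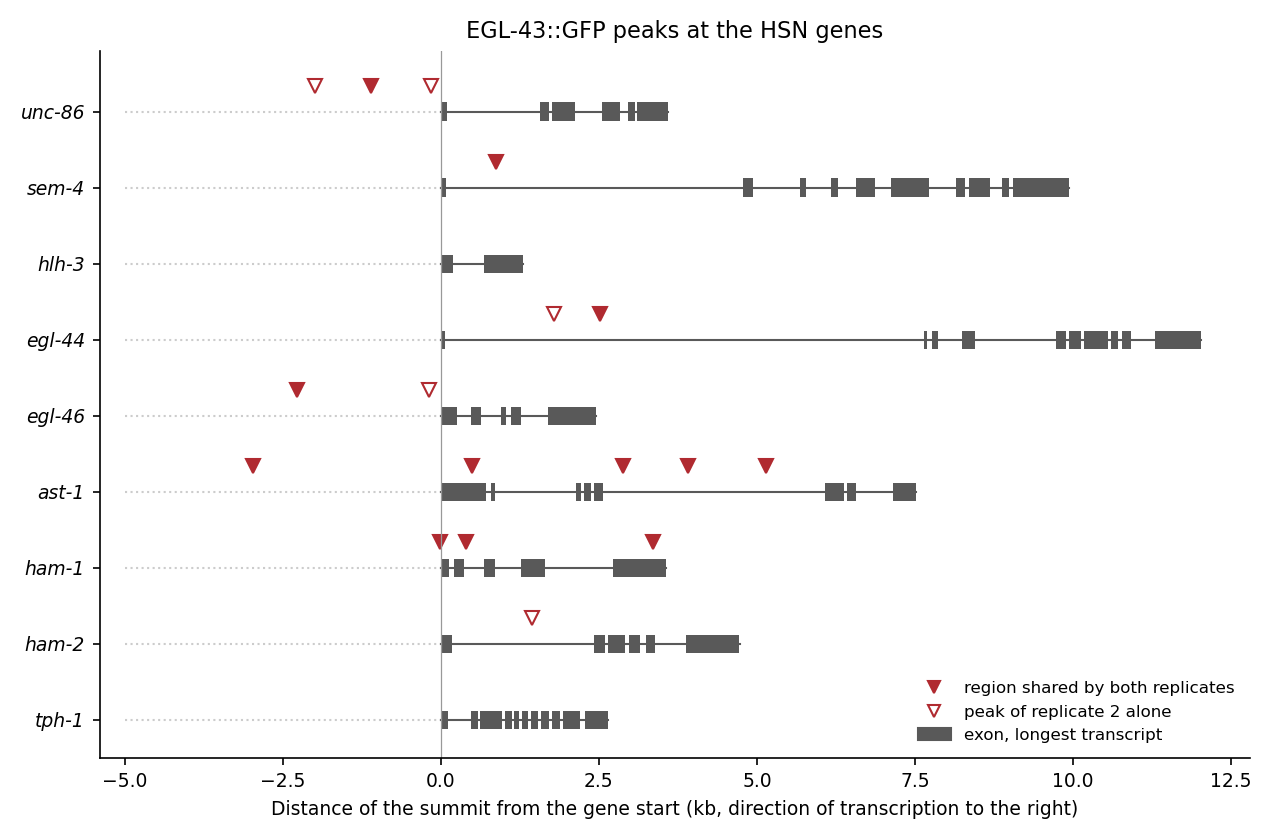
Position of the summit of each region at the 9 HSN genes, in kb from the gene start (negative upstream, dotted line). The summit is that of the replicate with the higher value, and boxes are exons of the longest transcript. Filled triangles are regions shared by both replicates and open triangles are peaks of replicate 2 alone. *ast-1* has 5 shared regions and *ham-1* has 3, whereas *hlh-3* and *tph-1* have none.

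*ham-1* (WBGene00001820, chrIV:12542183-12545737, plus strand, 5 exons) had 3 shared regions and the highest value of the list. In intron 2 (chrIV:12542403-12542834, 401 bp past the start) the fold enrichment was 4.88 (55 reads, 41.4–71.6) in replicate 1 and 5.82 (68 reads, 52.8–86.2) in replicate 2. A second region covered the gene start itself (chrIV:12542005-12542313), its summit 10 bp upstream, with 4.09 (46 reads) and 3.71 (43 reads). The last lay in the untranslated part of exon 5 (chrIV:12545442-12545672), with 3.49 (46 reads) and 4.08 (54 reads), and its nearest start was that of *ipmk-1*, 2590 bp away, rather than that of *ham-1*, 3351 bp away. Binding at *ham-1* was thus placed at both ends of the gene, and the replicates differed within their spread in all 3 regions.

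The remaining 4 bound genes had 1 shared region each, with a lower value under the median of all shared regions. *egl-44* (WBGene00001208, chrII:5928802-5940830, plus strand, 13 transcripts) was bound in its long intron 1 (chrII:5930923-5931426), at 3.22 (41 reads, 29.4–55.6) in replicate 1 and 3.04 (35 reads, 24.4–48.7) in replicate 2. The summits with these values lay 278 bp apart, 2517 bp past the start in replicate 1, which also held a second peak in the region, at 2.87 (32 reads). Replicate 2 alone had another peak in the same intron (chrII:5930500-5930664, 1784 bp past the start), at 3.46 (40 reads, 28.6–54.5). The window of that peak was the only one of the 17 regions of the list with the AP-1 word:
egl-44 intron 1, replicate 2 alone, chrII:5930536-5930636, plus strand: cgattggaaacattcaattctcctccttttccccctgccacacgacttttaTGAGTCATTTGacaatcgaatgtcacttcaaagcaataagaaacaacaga
In it the AP-1 word TGAGTCA runs into an E-box, CATTTG, and the capitals mark both.

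*egl-46* (WBGene00001210, chrV:6679123-6681573, minus strand), whose product acts with EGL-44, was bound upstream and not in its body. The shared region (chrV:6683638-6683950, 2283 bp upstream, inside the non-coding RNA genes *K11G9.9* and *K11G9.10*) had 2.61 (29 reads, 19.4–41.6) in replicate 1 and 2.78 (32 reads, 21.9–45.2) in replicate 2. Close to the start, 183 bp upstream, replicate 2 alone had a peak (chrV:6681625-6681840) at 2.95 (34 reads, 23.5–47.5). Both genes of this pair thus held a shared region and a further peak of replicate 2 alone.

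*unc-86* (WBGene00006818, chrIII:8212740-8216336, minus strand, 2 transcripts) also had its peaks upstream of the gene. The shared region (chrIII:8217350-8217662, 1110 bp upstream) had 2.53 (28 reads, 18.6–40.5) in replicate 1 and 3.71 (43 reads, 31.1–57.9) in replicate 2, and the start of *C30A5.16* was nearer to it, at 773 bp. The stronger peak near *unc-86* was called in replicate 2 alone (chrIII:8216162-8216598, summit 154 bp upstream), at 3.97 (46 reads, 33.7–61.4). Another peak of replicate 2 alone (chrIII:8218219-8218398), had 2.32 (27 reads) and lay inside *C30A5.16*, 102 bp from its start.

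**Figure D2:**
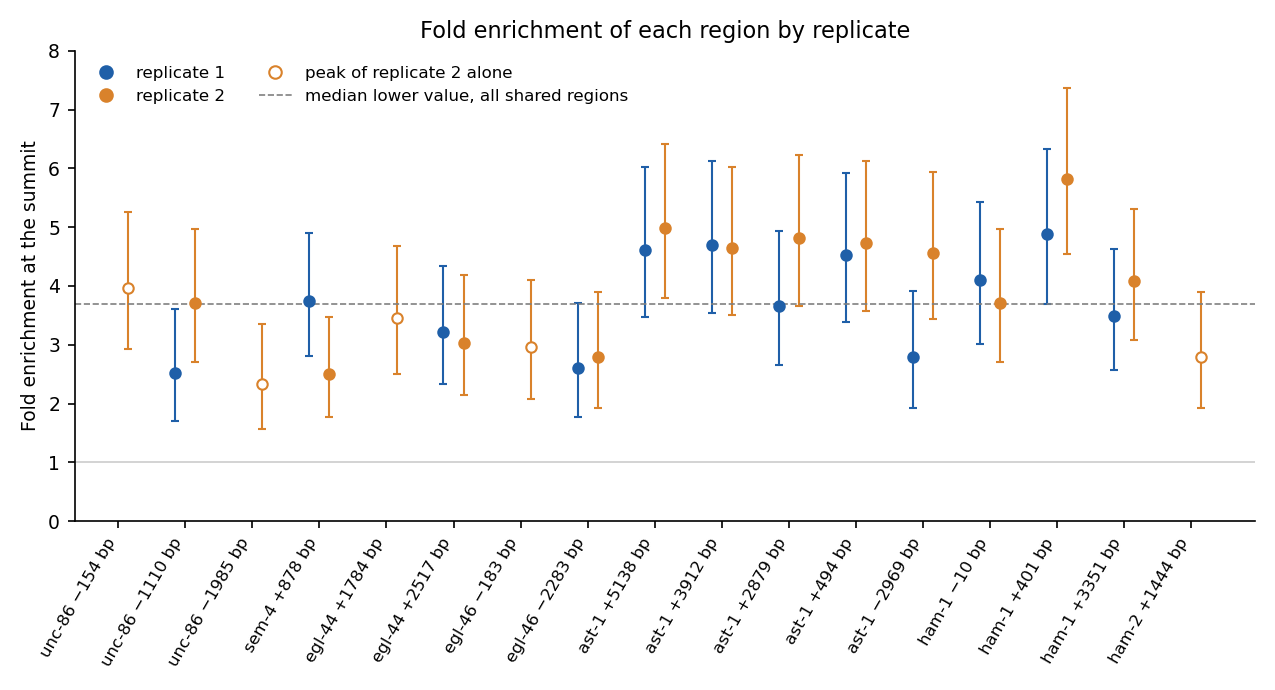
Fold enrichment at the summit (linear axis from 0) of each of the 17 regions of the HSN genes, in replicate 1 (blue) and replicate 2 (orange), labelled by gene and distance of the summit from the gene start. Bars are 95% Poisson intervals of the reads, and open circles are peaks of replicate 2 alone. The dashed line, 3.69, is the median over all shared regions of the lower value of the replicates. Only the lower value of a shared region compares with it. The highest values stand at *ham-1* (5.82) and *ast-1* (4.98), and the lower value of every shared region of *unc-86*, *sem-4*, *egl-44* and *egl-46* is under the dashed line.

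*sem-4* (WBGene00004773, chrI:7038900-7048832, plus strand, 10 exons) had a single region, called in both replicates with the summit at the same base, 878 bp past the start in intron 1 (chrI:7039632-7039889). Its fold enrichment was 3.75 (51 reads, 38.0–67.1) in replicate 1 and 2.51 (35 reads, 24.4–48.7) in replicate 2. The log2 ratio of replicate 2 to replicate 1, -0.58, was outside the range of 95% of the shared regions, the only such case among the 12 shared regions of the list, and the local background was the highest of the list, at 12.9 and 13.3 reads. *sem-4* and *egl-44* were thus both bound in intron 1, at values that differ by less than the spread between replicates.

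*ham-2* (WBGene00001821, chrX:4554685-4559408, plus strand, 3 transcripts) had 1 peak, in replicate 2 alone, in intron 1 (chrX:4556012-4556176, 1444 bp past the start), at 2.78 (32 reads, 21.9–45.2). A transcript of *ham-2* starts 1006 bp downstream of that summit. All 5 regions of the list that were called in a single replicate came from replicate 2, which held 10925 peaks against 8394 in replicate 1, and over the genome 3514 regions were of replicate 2 alone and 877 of replicate 1 alone.

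No peak was listed within 5000 bp upstream or in the body of *hlh-3* (WBGene00001950, chrII:9086608-9087908, plus strand) or *tph-1* (WBGene00006600, chrII:7549335-7551983, plus strand). The nearest peaks upstream of *hlh-3* lay 13055 bp away in replicate 1 and 8881 bp away in replicate 2, and the nearest downstream lay 21300 and 21375 bp away. For *tph-1* the nearest upstream peaks lay 11328 and 11343 bp away, at 7.91 and 7.92, and a peak at 2.93 lay 3542 bp past its end in replicate 2 alone. The lists hold only called peaks, so weaker binding at both genes was not detectable: over the lowest background of the lists (10.5 and 10.9 reads) no peak with fewer than 25 reads in replicate 1 or 24 reads in replicate 2 was listed, which is a fold enrichment of 2.26 and 2.11.

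Past their ends, 4 of the 9 genes had a shared region within 5000 bp that lay outside the windows used so far, beside 21.7% of all protein-coding genes. The strongest was past the end of *egl-44* (chrII:5942643-5943195), with 5.27 in replicate 1 and 5.51 in replicate 2 (rank 1713 of 7259), above the values inside *egl-44*, and its summit lay 1972 bp past the gene end and 125 bp upstream of the start of *F28B12.1*. Downstream of *unc-86* a region at chrIII:8211587-8211902 had 3.40 and 4.06, 979 bp past the gene end. Downstream of *ham-1* a region had 4.27 and 3.38, 3460 bp past the end and 1073 bp past the start of *ipmk-1*. Downstream of *sem-4* a region had 3.14 and 3.88, 3962 bp past the end. These values are given without assignment to a gene.

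The count of bound genes in the list can be read only beside that of all genes, and most of the 9 have long windows. By the same rule 34.4% of all protein-coding genes (6875 of 19985) had a shared region, beside 66.7% of the list (6 of 9). With the upstream limit at 500 bp, 4 of the 9 (*sem-4*, *egl-44*, *ast-1* and *ham-1*) beside 18.3% of all genes had one, and a peak of either replicate was found at 7 of the 9 beside 45.0% of all genes. Longer windows meet more peaks: among protein-coding genes with windows of 8634 bp or more, 49.6% had a shared region, and 3 of the 4 listed genes of this length did. Among those with windows of 7027 to 8633 bp the share was 34.5%, and again 3 of 4 listed genes had a region. Among those of 6215 to 7026 bp it was 26.4%, and the only listed gene of that length, *hlh-3*, had none. The part of window length in the count was not tested, and a list made with earlier results in view is no independent sample of HSN genes.

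**Figure D3:**
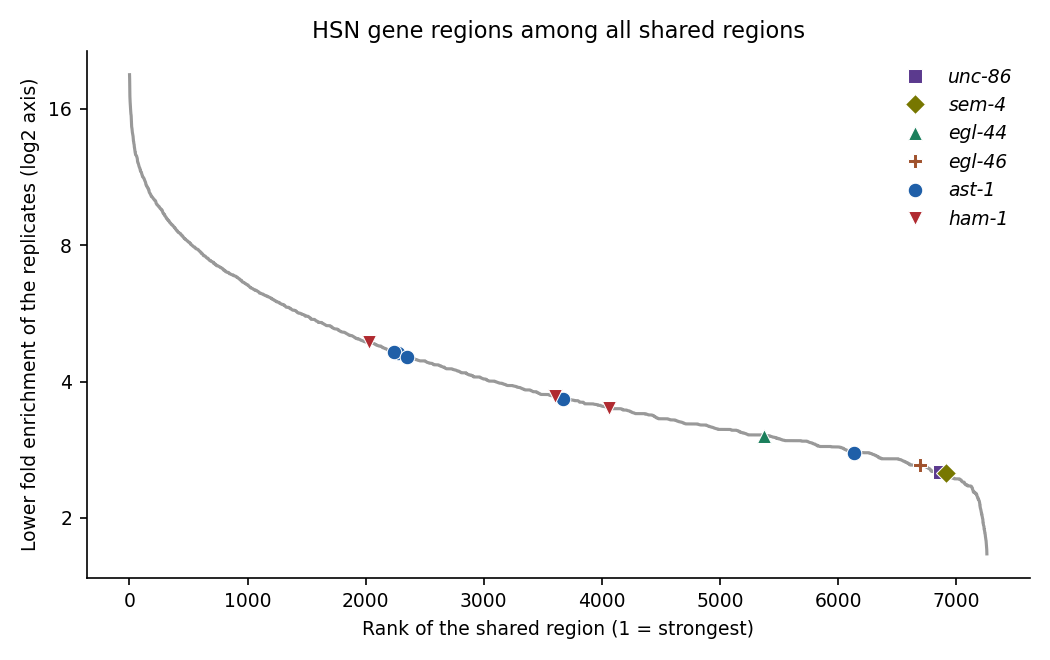
Lower fold enrichment of the 2 replicates (log2 axis) of all 7259 shared regions against their rank (1 is the strongest; grey line), with the 12 shared regions of the HSN genes as symbols. The best placed region, at *ham-1*, has rank 2032, and the regions of *egl-46*, *unc-86* and *sem-4* have ranks 6689, 6862 and 6917.

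In height the HSN genes were in the middle and lower part of the genome. Of the 12 shared regions, 5 ranked above the median of all shared regions and 0 above the upper quartile, and the best, in intron 2 of *ham-1*, stood at rank 2032 of 7259 (28.0%). The median of their lower values was 3.57, beside 3.69 over all shared regions. Taking the strongest region of each gene, the median was 2.83 for the 6 bound genes and 4.36 for all protein-coding genes with a shared region. By place, 6 of the 12 regions lay in introns, 4 upstream and 2 in exons, and 10 of the 12 had the start of the listed gene as the nearest protein-coding start. Their median length was 313 bp (231–784) and the median distance between the summits of the replicates was 34 bp, beside 363 bp and 25 bp over all shared regions.

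Ordered by the lower value of their strongest region, the bound genes ran *ham-1*, *ast-1*, *egl-44*, *egl-46*, *unc-86* and *sem-4*. From the spread between replicates, the mean log2 values of a pair of regions have to differ by more than 0.43 to stand apart, a limit that holds 95% of such differences if they are normal with an SD of 0.22. *ham-1* and *ast-1* differed by 0.19 and did not stand apart, although the ranges of their replicates did not overlap. That holds for the *ast-1* region picked by its lower value. The farthest intron 5 region of *ast-1*, with 4.62 and 4.98, did overlap the range of *ham-1* (4.88 and 5.82). Each of them exceeded each of the other 4 genes by 0.58 to 0.98, beyond that limit. Their value is, however, the highest of 3 shared regions (*ham-1*) and of 5 (*ast-1*), against 1 region in each of the other 4 genes. The limit is for a pair of single regions and does not allow for that choice. Since it rests on shared regions of all heights, it may also be too narrow for the weak regions of those 4 genes. Among *egl-44*, *egl-46*, *unc-86* and *sem-4* no pair differed by more than 0.21, so their order is not resolved, although the replicate ranges of *egl-44* and *egl-46* did not overlap. In all, 15 pairs were set against this limit as a description, and 8 lay beyond it.

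**Figure D4:**
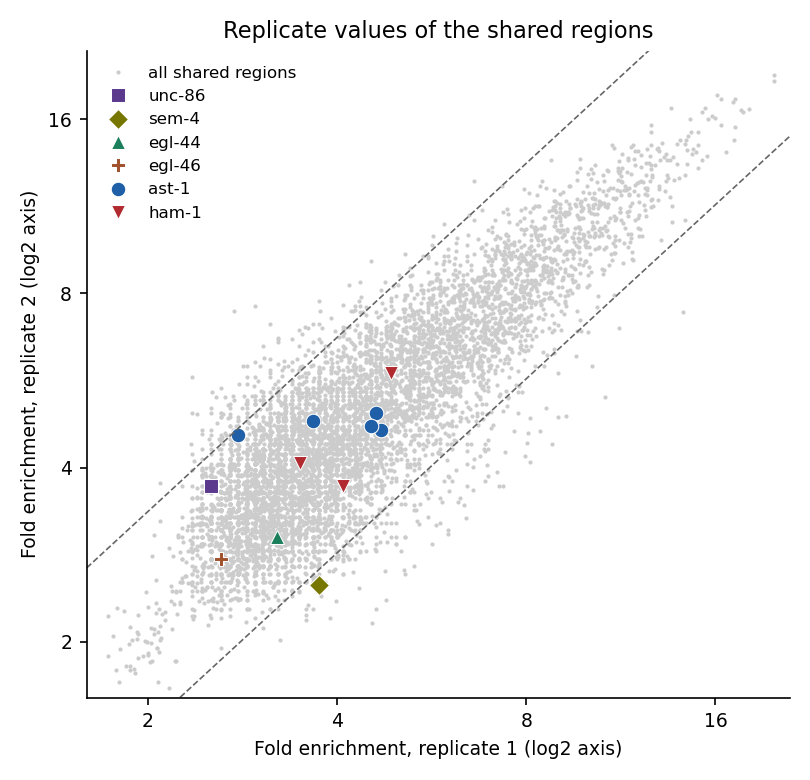
Fold enrichment in replicate 2 against replicate 1 (log2 axes) for all 7259 shared regions (grey) and the 12 shared regions of the HSN genes (symbols). Dashed lines enclose the log2 ratios of 95% of the shared regions, from -0.49 to 0.75. The *sem-4* region, at 3.75 and 2.51, is the only one of the 12 outside the lines.

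Over the 12 windows of 101 bp, the E-box occurred in 4 (33.3%), beside 39.1% of the windows of all shared regions, and GATAA in 1 (8.33%), beside 13.2%. The order of the E-box shares depended on the window: in 25 bp either side of the summit it was 33.3% beside 21.5%, and in 100 bp either side it was 6 of 12 windows beside 60.3%. AGATGAG, ACAAGATA and the AP-1 word occurred in 0 of 12, beside 4.26%, 0.276% and 3.43% of all windows. With 12 windows, 0 matches allow a share of up to 26.5% (upper 95% Clopper-Pearson limit), so the rarity of these words here was not resolved. That limit takes the windows as independent draws, whereas 5 of them are of *ast-1* and 3 of *ham-1*, in a chosen list. The fourth E-box window was that at the start of *ham-1*. The GC content of the 12 windows ran from 37.6% to 60.4% with a median of 45.5%, and the median over all shared regions was also 45.5%.

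A second list of 14 genes known for HSN development or for the handling of serotonin was looked up by the same rule, and 12 of them had a shared region, again beside 34.4% of all genes. Of these, 9 have windows of 8634 bp or more, a class in which 49.6% of genes had one, and all 9 did. Of the other 5 genes, 3 did. By window length these were 2 of 3 at 7027 to 8633 bp, beside 34.5% of all genes in that class. They were 1 of 1 at 6215 to 7026 bp, beside 26.4%, and 0 of 1 at 5030 to 6214 bp, beside 27.1%. The strongest of the second list was *egl-43* itself, with 10 shared regions of which the highest, 719 bp upstream, had 17.7 and 16.5 (rank 7). *tra-1*, the Gli-type regulator of sexual fate, followed with 9.84 and 11.98 in intron 4. *egl-27*, which encodes an MTA-like chromatin factor, had 8 shared regions. The highest, with 9.47 and 9.51, reached into the 5000 bp upstream, but its summit lay 7430 bp before the start, beyond that limit. In intron 5 of *egl-27*, a region had 8.34 and 11.83, its summit 3454 bp past the start. *egl-18*, a GATA factor, had 4 shared regions, all in intron 1, up to 6.36 and 5.74. Among guidance receptors, the Robo gene *sax-3* had 9 shared regions (up to 4.62 and 5.27), the DCC gene *unc-40* had 3.71 and 4.25 at 252 bp upstream of its start, and the Frizzled gene *mig-1* had 3.66 and 3.29. The Hox gene *egl-5* had the lowest value, 2.505 and 3.12. The Wnt gene *egl-20* had a peak of replicate 2 alone (2.28), and the BH3 cell death gene *egl-1* had no peak.

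All 4 serotonin genes of the second list had a shared region, and *tph-1* had none, beside 34.4% of all protein-coding genes with one. In the window class of *mod-5* and *cat-1* the share was 49.6%. It was 34.5% in the class of *bas-1* and *tph-1*, and 26.4% in that of *cat-4*. The windows of *mod-5* (18079 bp) and *cat-1* (10048 bp) are longer than that of *tph-1* (7649 bp), and whether the genes differ was not tested. The aromatic amino acid decarboxylase gene *bas-1*, which acts after *tph-1* in serotonin synthesis, had a shared region 189 bp upstream of its start with 3.57 and 4.47. The GTP cyclohydrolase gene *cat-4*, which makes the cofactor of TPH-1, had one 182 bp upstream with 2.79 and 3.29. The vesicular monoamine transporter gene *cat-1* had 3 shared regions, the highest, 2105 bp upstream, also with 3.57 and 4.47, and nearer to the start of *cyp-43A1* at 1680 bp. The serotonin reuptake transporter gene *mod-5* had 3.84 and 3.45 in intron 11, 9724 bp past its start and nearer to that of *rpb-7*. *cat-1*, *cat-4* and *bas-1* also serve dopamine neurons, so their regions do not refer to the HSNs alone. The median of the strongest lower values was 3.64 over the 12 bound genes of the second list.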

How the data were processed

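Binding of EGL-43::GFP in L3 larvae was measured by ChIP-seq in 2 replicates, whose numbers and condition came from the labels. Per the study's methods, the authors aligned the reads to ce11 (WBcel235) with BWA and ran MACS2 on each replicate by itself at a stated false discovery rate of 0.05, and the deposited lists end at q-values of 0.00395 and 0.00688. The deposited lists give for each peak a fold enrichment (a ratio with 1 added to reads and background), its p-value as −log10, and its q-value on that same −log10 scale. The deposited score was not used. For its own list of binding sites, the study also split regions found in both replicates, set a threshold on normalized signal and removed blacklisted regions. These later steps were not applied here, so a shared region need not be among the study's binding sites. The other values deposited are positions, among them the summit as a distance from the peak start. Positions are counted here from 1.

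Library totals are not in the lists, so depth is unknown. For 100% of the peaks, however, a whole number of reads and a background were found that return both the deposited fold enrichment and the deposited −log10 p-value (tolerance 0.001), with a median of 45 and 46 reads at the summit. The intervals assume that reads were not rescaled before the peaks were called.

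Overlapping peaks (1 bp or more) were joined to regions. Each region took the highest value per replicate and was ranked by the lower one. Genes came from Ensembl release 115. Windows of 50 bp either side of the summit were searched for words. The genes named were the 9 of the list, the 14 of the second list and the gene with the start nearest to each summit. The members and lists were chosen with earlier results of these data known. Merging, read recovery and word search were tested on simulated data. Alternatives were other upstream limits (0, 500 and 2000 bp), a q-value of at most 1e-05, a reciprocal overlap of 50%, summits within 100 bp, each replicate alone, the nearest start only, and windows of 25 or 100 bp either side. Python 3.11.15, numpy 2.4.6, scipy 1.17.1 and matplotlib 3.10.9 were used.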

Additional observations from a re-analysis of the deposited data

How the results depend on the processing

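*ast-1*, *ham-1* and *sem-4* had a shared region (with 1 replicate left out, a peak of the other) under every alternative tried, and *hlh-3* and *tph-1* under none. Of the 9 genes 6 had one, beside 34.4% of all protein-coding genes. This was 4 beside 12.1% with the gene body alone, 4 beside 18.3% with 500 bp upstream, 5 beside 25.2% with 2000 bp upstream, 4 beside 32.8% with a q-value of at most 1e-05 (without *unc-86* and *egl-46*), 5 beside 33.2% with a reciprocal overlap of 50% (without *egl-44*) and 6 beside 33.3% with summits within 100 bp. With the nearest start only it was 5 (without *unc-86*). No share of all genes was counted for that setting, so this 5 cannot be read as high or low. Leaving out replicate 1 gave 7 genes beside 43.1% and 17 regions, and leaving out replicate 2 gave 6 beside 36.6% and 13 regions. The 1 GATAA word was lost (0 of 12) in windows of 25 bp either side, and the share of windows with an E-box, below that of all windows at 50 and 100 bp either side, was above it at 25 bp (33.3% beside 21.5%). With replicate 2 alone, the strongest peak of *unc-86* was 3.97 and that of *egl-44* 3.46. Without an input or untagged library, signal that does not depend on EGL-43::GFP could not be measured, and 2 replicates give a coarse spread.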
